A study of Mus musculus with 3 samples.

Results

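High glucose was compared with normal glucose in cultured endothelial cells from the mouse corpus cavernosum, which forms the erectile body of the penis, with 1 one-colour expression array for each condition. A gene entered the comparison where both arrays read its probe well above background, and 16771 of the 20886 genes named on the array did so. Of the 39429 probes, 29977 were well above background on both arrays. The cells were primary cells labelled as strain C57BL/6, and every group was grown in a serum-containing medium with heparin and vascular endothelial growth factor A. Normal glucose was 5 mmol as labelled and high glucose was 30 mmol. The remaining array held cells in 30 mmol glucose with added DKK2 (Dickkopf 2), a secreted protein that acts on Wnt receptors, and its values are given beside the others. Each condition lasted 48 h, and RNA of 3 samples was pooled for its array. There was therefore no replicate and no p-value, the pooling hides the spread between the 3 samples, and every difference below describes these arrays. None of the 3 arrays is labelled as an osmotic control.

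Endothelial cells take up glucose largely without need of insulin, so the level inside the cell follows the level outside. Excess glucose is known to enter the polyol and hexosamine pathways, to raise diacylglycerol and protein kinase C activity, and to raise superoxide from mitochondria and NADPH oxidases. In penile tissue, nitric oxide from endothelial nitric oxide synthase relaxes smooth muscle through cyclic GMP, and diabetes is known to impair this relaxation.

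The scaled signal used below is the background-corrected signal of a probe as a percent of its array's 75th percentile, so 100 is that percentile. A difference is the log2 ratio of the high glucose to the normal glucose array. By the scanner software's error estimates the SD of a difference was 0.20 at the median, a measure of the array reading alone and not of variation between cultures. In counts, "higher" and "lower" mean at least 2-fold, a difference of at least 1.00 in size. Each list count below is to be set beside the shares over all genes, 2.67% higher and 5.72% lower. The 75th percentile stood at 1201 in normal glucose, 2380 in high glucose and 2417 under DKK2, so normal glucose was the dimmest array, and scaling divided out a ratio of 1.98. Well above background were 76.6% of probes in normal glucose, 84.7% in high glucose and 83.9% under DKK2. The 3 arrays lay on 1 slide, and array position and condition cannot be told apart. Over 20 blocks of the array surface the median difference lay between 0.02 and 0.13.

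Of the 16771 genes, 448 (2.67%) were higher in high glucose and 960 (5.72%) were lower. The median difference was 0.09, and 9454 genes (56.4%) lay above 0. The middle 90% of genes lay between -1.08 and 0.85, so the tail of lower genes was the longer one. At least 4-fold higher were 55 genes and at least 4-fold lower were 155. In unscaled signal 158 of the 960 lower genes were at least 2-fold below normal glucose; with the brighter high glucose array, a 2-fold lower scaled value is below in unscaled signal by construction. The gene just past the rule on the higher side stood at 1.00001 and the gene just short of it at 0.999, and on the lower side they stood at -1.001 and -0.999, so the rule marks no gap. The share of genes past 2-fold was smaller among brighter genes. With genes split into 5 equal groups by brightness, 4.02% of the dimmest group were higher and 7.99% lower, and in the brightest group 1.31% were higher and 2.80% lower. On the autosomes, 1.78% to 3.77% of genes were higher and 3.98% to 7.06% were lower.

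**Figure D1:**
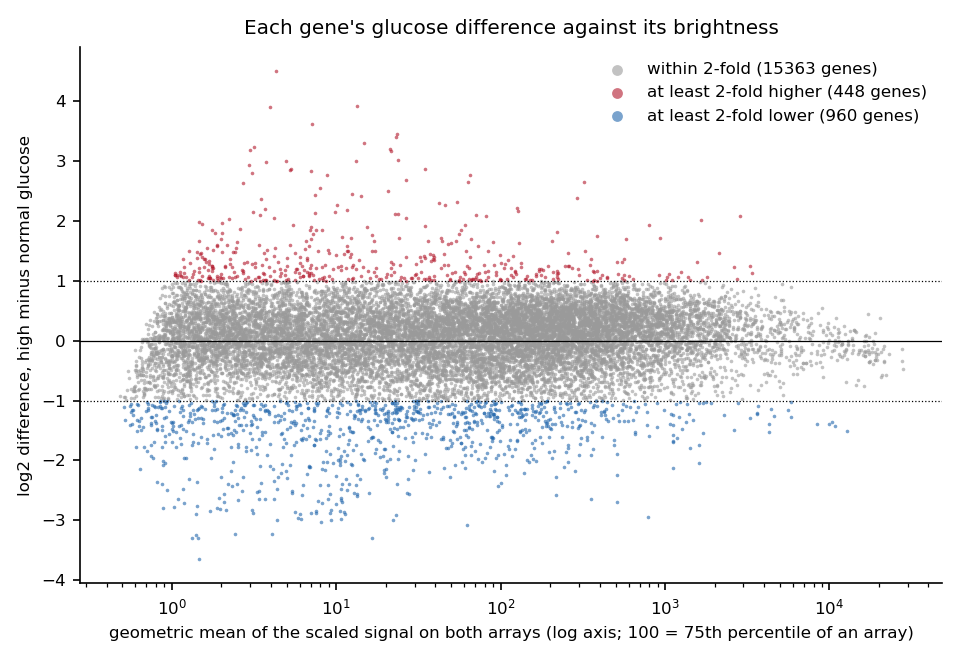
Each point is 1 of 16771 genes, with the geometric mean of its scaled signal on both arrays on a log x axis and its log2 difference, high minus normal glucose, on the y axis. Red points are the 448 genes at least 2-fold higher and blue points the 960 at least 2-fold lower, and both are sparser at high signal.

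**Figure D2:**
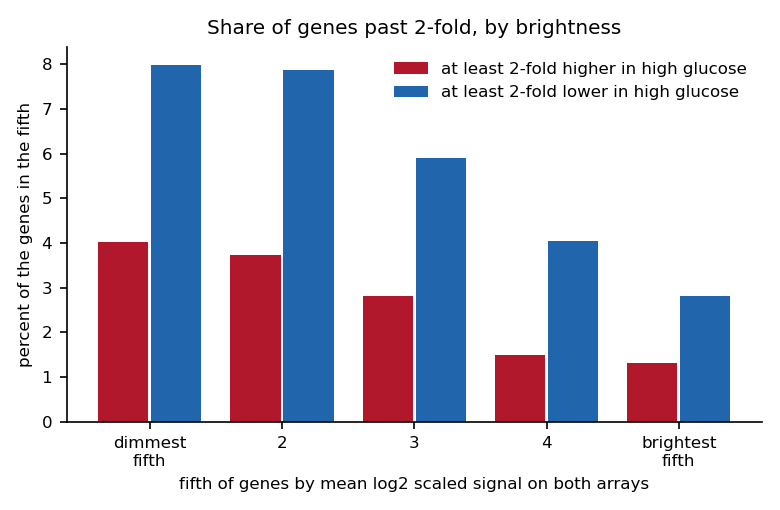
Bars give the percent of genes at least 2-fold higher (red) or lower (blue) in high glucose in 5 equal groups of genes by brightness. Higher genes go from 4.02% in the dimmest to 1.31% in the brightest group, and lower genes from 7.99% to 2.80%.

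Most genes were read by 1 probe, and a second probe was the check available within an array. Among 4319 genes with a second measured probe, 299 were at least 2-fold apart on the brightest probe, and in 204 of these (68.2%) the second probe lay on the same side of 0. That share was 63.6% where both probes were under a signal of 100 in normal glucose and 84.7% where both were at 1000 or more. In 59 of the 299 genes the second probe was also past 2-fold on the same side. The Pearson correlation between the differences of both probes was 0.22 over the 4319 genes. It was 0.37 over the 1101 genes with both probes at 1000 or more. All measured probes were at least 2-fold higher for 21 genes (0.486%) and at least 2-fold lower for 28 (0.648%). These genes are described first, each with its brightest probe.

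Mgst3, a microsomal glutathione transferase, had a scaled signal of 60.4 in normal glucose, 271 in high glucose and 571 under DKK2. Its 2 probes differed by 2.17 and 2.70. Pclaf, a clamp-associated factor that binds PCNA at replication forks, had a scaled signal of 408 in normal glucose, 1563 in high glucose and 1969 under DKK2, and its probes differed by 1.94 and 2.32. Both genes were low only in normal glucose. Kcnj13, an inwardly rectifying potassium channel, had the largest agreed difference, with probes at 2.83 and 2.84, but at a scaled signal of 2.62 in normal glucose and 18.6 in high glucose it was dim. With normexp background correction, which adds a fixed offset to both arrays, Kcnj13 was at 0.77 and Mgst3 at 2.05. After scaling, that offset is a larger part of the dimmer normal glucose array, so normexp values of dim genes are pulled down. Acp5, a lysosomal acid phosphatase of osteoclasts and macrophages, had a scaled signal of 42.0 in normal glucose, 126 in high glucose and 74.6 under DKK2. Retn, the adipokine resistin, was high in high glucose alone, with a scaled signal of 3.54 in normal glucose, 15.5 in high glucose and 2.85 under DKK2. Adamts2, which trims the ends of procollagen, also stood highest in high glucose, with scaled signals of 717, 1558 and 678 in the same order of arrays. Other genes with both probes higher were Net1, an exchange factor for RhoA, at 1.66, Tox4 at 1.44, Cnot6l, a subunit of the CCR4-NOT deadenylase, at 1.25, the nucleoside transporter gene Slc29a3 at 1.23, the spindle protein gene Haus7 at 1.16 and the chemokine receptor gene Cxcr6 at 1.67. Slc29a3, Haus7 and Cxcr6 were dim, at scaled signals of 6.66, 10.5 and 3.68 in normal glucose, and with normexp they were at 0.11, 0.37 and 0.006. Of the 21 genes, 14 were also at least 2-fold above normal glucose on the DKK2 array, which is compared with the same normal glucose array.

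Among the 28 genes with all probes lower, Ass1 was bright. It encodes argininosuccinate synthase, which remakes the arginine that nitric oxide synthase uses, and its scaled signal stood at 1899 in normal glucose, 787 in high glucose and 1103 under DKK2. Its probes differed by -1.27 and -1.93. Cald1, the actin-binding protein caldesmon, had a scaled signal of 1673 in normal glucose, 716 in high glucose and 473 under DKK2, with probes at -1.23 and -1.37. Both were high only in normal glucose. Gcm1, known as a placental transcription factor, was lower on all 4 probes, from -1.37 to -1.84. Its brightest probe had a scaled signal of 21619 in normal glucose, 7627 in high glucose and 3866 under DKK2. The 4 probes were far apart in level, at scaled signals of 21619, 17359, 618 and 1.15 in normal glucose. The dimmest gave the -1.84, and whether all 4 read Gcm1 was not tested. Apobec3, a cytidine deaminase that restricts retroviruses, had a scaled signal of 596 in normal glucose, 188 in high glucose and 242 under DKK2. Laptm5, a lysosomal membrane protein of blood cells, was low only in high glucose, at scaled signals of 20.1, 8.44 and 20.7. The extracellular matrix genes Papln at -2.85 and Npnt, a ligand of an integrin, at -2.39 were lower too, as were Phactr2 at -1.28, Ubap2l at -1.39, Fntb, a farnesyltransferase subunit, at -1.82, Magea1 at -2.65 and the Y-linked Sly at -1.21. Magea1 and Sly were dim, at scaled signals of 8.44 and 7.28 in normal glucose. Papln and Npnt were dim in high glucose, at 2.78 and 4.70. Of the 28 genes, 19 were also at least 2-fold below normal glucose on the DKK2 array.

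**Figure D3:**
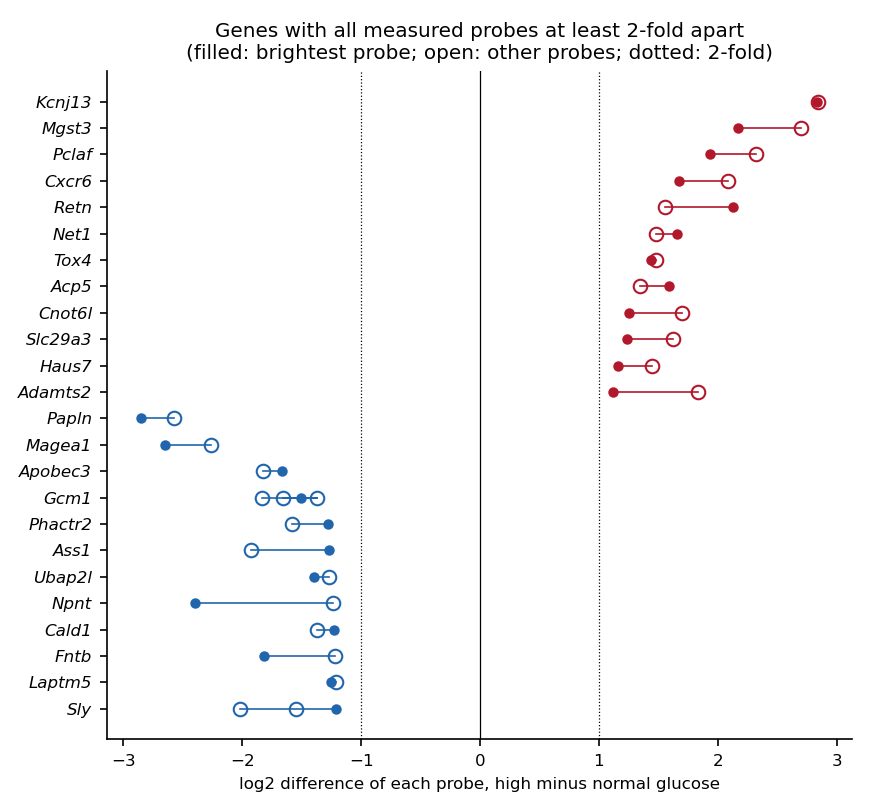
Each row is a gene whose measured probes were all at least 2-fold apart, the 12 per direction with the largest least-changed probe after clone and predicted gene names were left out, and the x axis is the log2 difference, high minus normal glucose. Filled points are the brightest probe and rings the others; the probes of Kcnj13 lie at 2.83 and 2.84, and those of Npnt spread from -2.39 to -1.23.

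Among 7256 genes with a signal of at least 1000 on both arrays, where dimness matters least, 81 (1.12%) were higher and 299 (4.12%) were lower. Of these, 78 and 257 were also past 2-fold with normexp. Csf3r, the receptor for granulocyte colony-stimulating factor, had a scaled signal of 1393 in normal glucose, 5939 in high glucose and 6520 under DKK2, a glucose difference of 2.09. Mtif2, the initiation factor of mitochondrial translation, had a scaled signal of 821 in normal glucose, 3316 in high glucose and 4046 under DKK2, a difference of 2.01. Rnu1b6, a U1 small nuclear RNA gene, was at 2.64 and the kinase gene Stk25 at 2.38. These 4 genes were low in normal glucose and near each other on the other 2 arrays. Further bright genes on the higher side were Heatr3 at 1.74, the phospholipase gene Pla2g4b at 1.67 and Cd302, a lectin receptor, at 1.72. Mlxipl at 1.82 and Ap5z1 at 1.70 had another probe at -0.12 and 0.31.

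The largest bright difference on the lower side was in Ace, the angiotensin-converting enzyme, with a scaled signal of 2190 in normal glucose, 284 in high glucose and 186 under DKK2, a difference of -2.95. Actn1, the actin cross-linker alpha-actinin 1, had a scaled signal of 1298 in normal glucose, 201 in high glucose and 164 under DKK2, a difference of -2.69. Each was read by 1 probe. Cited2, a co-activator-binding protein that restrains HIF-1, was at -2.12 on its brightest probe and -0.95 on the other. Also lower were Ptk7, a planar polarity receptor, at -2.58, the kinesin gene Kifc1 at -2.38, Ubl7 at -2.29, the splicing factor gene Smndc1 at -2.25, the chromatin gene Gatad2b at -2.17, Cmtm4 at -2.22 and Ahdc1 at -2.17. The last 2 had a second probe at -0.10 and 0.40.

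The vessel genes were described next, beginning with genes that mark endothelial cells. Of 34 such genes 32 were measured, and 6 were higher and 0 lower, against 2.67% and 5.72% of all genes. The list's median difference was 0.47, and 27 of 32 lay above 0. Its summed scaled signal stood at 4747 in normal glucose, 5591 in high glucose and 8964 under DKK2. Pecam1, an adhesion molecule of endothelial junctions, had a scaled signal of 11.2 in normal glucose, 15.5 in high glucose and 18.0 under DKK2. Cdh5, the junctional VE-cadherin, had a scaled signal of 16.2, 23.8 and 12.9 on the same arrays. Kdr, the main receptor of vascular endothelial growth factor A, had a scaled signal of 304, 384 and 451. These defining markers were thus measured, and they stood within 2-fold between both glucose conditions. The 2 list members not measured, Emcn and Erg, were above background in high glucose but not in normal glucose.

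The 6 higher endothelial genes were all dim. Icam2, a ligand for leukocyte integrins, had a scaled signal of 3.30 in normal glucose, 19.4 in high glucose and 8.44 under DKK2. Robo4, a guidance receptor of vessels, had a scaled signal of 4.60, 22.1 and 7.28. Both peaked in high glucose. Mmrn2, a matrix protein of vessels, stayed higher with DKK2, at scaled signals of 8.95, 30.4 and 25.9. Cldn5, the tight junction protein claudin 5, was at 1.55 (-0.25 with normexp), and She at 1.34 (-1.10 with normexp). The list's median moved from 0.47 to -0.31 with normexp, where the median of all genes was -0.26, and 4 members were then lower and 0 higher. Among the 16 members with a signal of at least 100 on both arrays the median was 0.33. Of the 20 fibroblast markers, all measured, 0 were higher and 0 lower, and their median was -0.13. The summed scaled signal of those markers stood at 101128 in normal glucose, 92106 in high glucose and 84947 under DKK2. These sums were far above those of the endothelial list, 4747, 5591 and 8964 on the same arrays. A sum over different genes does not give a share of cells. Smooth muscle and pericyte markers had 0 higher and 2 lower of 21, Cald1 and Cspg4 at -1.25, with a median of -0.18 and sums of 15628, 11998 and 7986. Of 26 epithelial markers 17 were measured, with 0 higher and 0 lower, and Epcam, Cdh1 and Krt8 were not above background on both arrays. The skeletal muscle list had 2 higher and 2 lower of 23, with sums of 338, 323 and 130. The part of other cells in the endothelial difference was not tested, and in pooled RNA fewer cells of a type and less RNA per cell cannot be told apart.

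Nitric oxide genes went both ways. Nos3, endothelial nitric oxide synthase, had a scaled signal of 8.11 in normal glucose, 19.4 in high glucose and 15.3 under DKK2. Both of its probes were higher, at 1.26 and 1.04, but with normexp it was at 0.19. Ass1, which supplies its substrate, was lower as above, and Gucy1a1, a subunit of the guanylate cyclase that senses nitric oxide, was at 1.05 at a scaled signal of 1.42 in normal glucose (-1.004 with normexp). Of 20 measured genes of nitric oxide and cyclic GMP, 2 were higher and 1 lower, and their median was 0.23. Among 32 vasoactive peptide and prostanoid genes, 3 were higher and 1, Ace, was lower. Ptgir, the prostacyclin receptor that relaxes smooth muscle, had a scaled signal of 68.6 in normal glucose, 166 in high glucose and 144 under DKK2. Calcrl, the receptor partner for adrenomedullin, was at 1.30 and Ptger3, a prostaglandin E receptor, at 1.09, both dim and at -1.18 and -0.11 with normexp. Edn1, which encodes the vasoconstrictor endothelin 1, was at -0.20.

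Angiogenic factors and receptors had 2 higher and 2 lower of 33, with a median of 0.22. Angpt1, the ligand that activates the vessel receptor Tie2, had a scaled signal of 182 in normal glucose, 21.6 in high glucose and 43.3 under DKK2. Angpt2, which blocks Tie2 in many settings, had a scaled signal of 27.2, 74.2 and 42.6. Angpt1 was thus lower and Angpt2 higher in high glucose, each against its own level in normal glucose. Flt4, the receptor of VEGF-C, was at -1.51 and the chemokine receptor gene Cxcr4 at 1.99, both at scaled signals under 3 on both arrays, and Cxcr4 was at -0.95 with normexp. Vegfa was at 0.04 on its brightest probe and -1.20 on the other. Of 27 junction protein genes 1, Cldn5, was higher and 0 were lower. Coagulation and fibrinolysis genes had 0 higher and 0 lower of 21, with F10 at -0.82 and F2rl1 at -0.77.

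**Figure D4:**
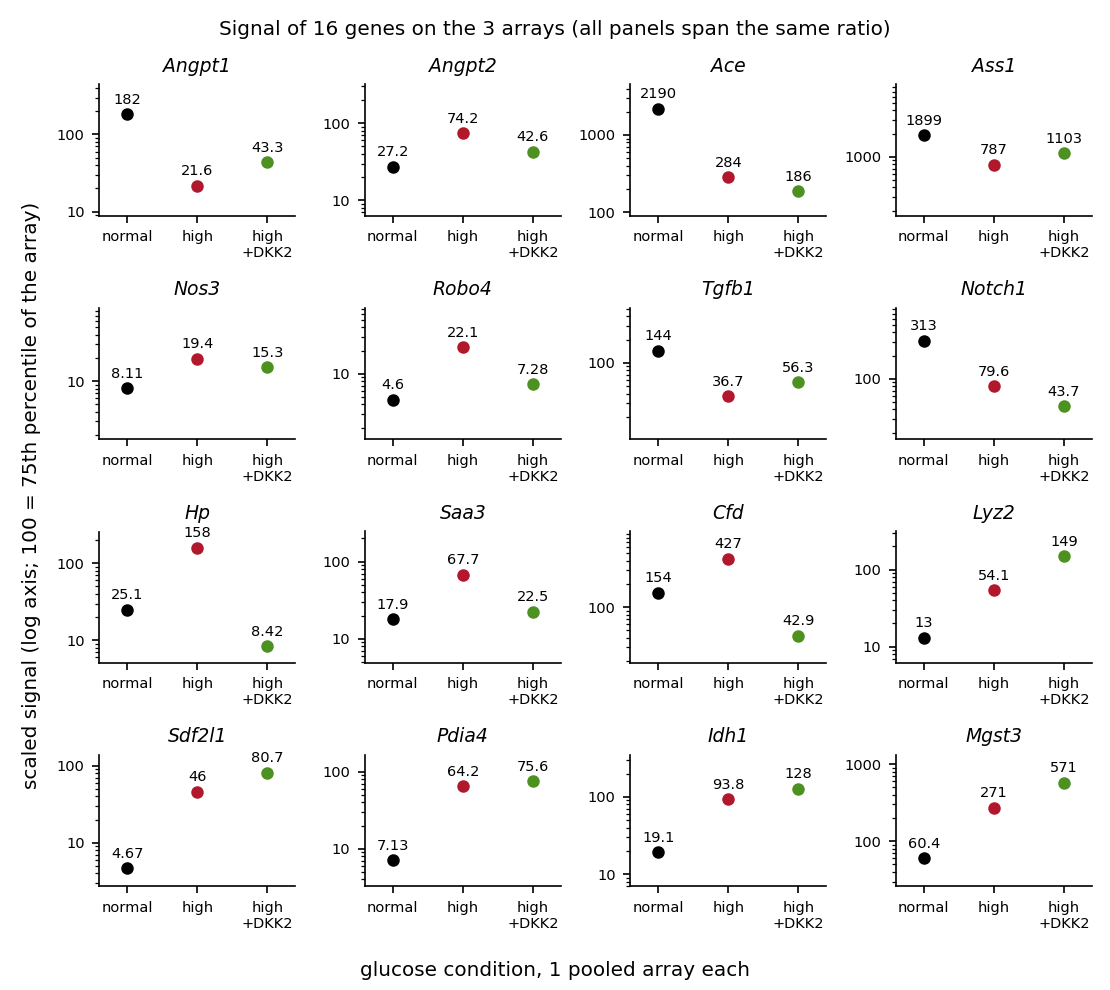
Each panel is 1 gene, with the scaled signal of its brightest probe on a log y axis for 1 pooled array per condition, normal glucose (black), high glucose (red) and high glucose with DKK2 (green). Angpt1 goes from 182 to 21.6 and Ace from 2190 to 284 between normal and high glucose, while Hp goes from 25.1 to 158.

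Genes that take up and break down glucose mostly stayed within 2-fold, as did genes in general, of which 2.67% were higher and 5.72% lower. Of 38 genes of glucose entry and glycolysis 0 were higher and 1 was lower, with a median of -0.12 against 0.09 over all genes. The lower one was Pfkl, the liver-type phosphofructokinase that commits sugar to glycolysis, with a scaled signal of 211 in normal glucose, 59.7 in high glucose and 63.8 under DKK2. Slc2a1, the main glucose transporter of endothelial cells, was at 0.11 with scaled signals of 945, 1019 and 2262, so it stood out only with DKK2. In the side pathways 0 were higher and 1 lower of 24. Akr1b3, the aldose reductase that opens the polyol pathway, was at 0.42, and Gfpt1, which opens the hexosamine pathway, was at 0.38. Oga, which removes the sugar that the hexosamine pathway adds to proteins, was at -1.62, with scaled signals of 155, 50.2 and 43.8. Txnip, a gene that glucose induces in many cells, was at 0.84 on its brightest probe and -0.11 on the other. In glucose sensing and storage 1, Mlxipl, was higher and 2 lower of 28. Foxo3, a transcription factor that insulin signalling inactivates, was at -1.72 and Tfeb, a lysosomal regulator, at -1.26. In the insulin and insulin-like growth factor list 0 were higher and 2 lower of 32, namely Igf2 at -1.82 and Gsk3b at -1.02, whose other probes reached 0.47. Foxo3 and Igf2 were dim, at scaled signals of 8.98 and 5.71 in normal glucose. The protein kinase C list held Prkce at -1.34, Prkcz at -1.12 with another probe at 0.17, and the inflammatory ligand gene S100a8 at 1.26 (0.14 with normexp). Prkce and Prkcz were dim as well, at scaled signals of 11.6 and 9.95 in normal glucose.

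Mitochondrial genes stood slightly above the median of all genes as a group, with few past 2-fold, as among genes in general. Of 77 measured mitochondrial ribosomal protein genes 66 lay above 0 (85.7%, against 56.4% of all genes), with a median of 0.39, 3 higher and 0 lower. The 3 were Mrps9 at 1.14, Mrpl46 at 1.03 and Mrps5 at 1.03. Of 83 respiratory chain and ATP synthase genes 66 lay above 0, with a median of 0.30, 5 higher and 1 lower. Ndufs8 and Ndufa10, subunits of complex I, were at 1.08 and 1.06, Uqcrfs1, the iron-sulfur protein of complex III, was at 1.11 and Cox8b, the muscle form of a complex IV subunit, at 1.45 (0.29 with normexp). Uqcrc1, a core protein of complex III, went the other way, with a scaled signal of 1107, 235 and 349. Tricarboxylic acid cycle genes had a median of 0.32 with 24 of 29 above 0. Idh1, the cytosolic isocitrate dehydrogenase that makes NADPH, was the 1 higher gene, with a scaled signal of 19.1 in normal glucose, 93.8 in high glucose and 128 under DKK2. Brighter genes as a whole also stood a little above the median of all genes, with a median of 0.11 over the 7256 genes with a signal of at least 1000 on both arrays. The 83 measured cytosolic ribosomal protein genes had a median of 0.02, with 0 higher and 1, Rps15 at -1.39, lower. Relative to the median of all genes, the medians of the mitochondrial ribosomal list lay between 0.24 and 0.70 and those of the respiratory list between 0.18 and 0.68 over the main setting and 10 others.

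In fatty acid oxidation 2 were higher and 1 lower of 38. Cd36, a fatty acid transporter, had a scaled signal of 5.42 in normal glucose, 24.7 in high glucose and 35.4 under DKK2 (0.97 with normexp). Acaa1a, a peroxisomal thiolase, was at 1.04 and Hadha, a subunit of the mitochondrial trifunctional protein, at -1.36. Cholesterol synthesis had 1 higher and 2 lower of 26. Dhcr7, the last enzyme of the pathway, at -1.99 and its regulator Srebf2 at -1.41, with another probe at -0.81, were the lower ones. Fatty acid and glyceride synthesis had 0 higher and 0 lower of 28.

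Genes of protein folding in the endoplasmic reticulum held both very high and very low members, while most were within 2-fold, as were genes in general. Of 36 measured genes 2 were higher and 2 lower, and their median was 0.19. Sdf2l1, a stress-induced partner of the reticulum's chaperones, had a scaled signal of 4.67 in normal glucose, 46.0 in high glucose and 80.7 under DKK2. Pdia4, a disulfide isomerase, had a scaled signal of 7.13, 64.2 and 75.6. Both were low only in normal glucose, and with normexp they were at 1.80 and 2.04. Txndc5, another disulfide isomerase, had a scaled signal of 889, 141 and 134, a difference of -2.65, and Hyou1, a large chaperone, was at -1.35. Hyou1 was dim, at a scaled signal of 8.83 in normal glucose. Hspa5, the main chaperone of the compartment (BiP), was at -0.02 with scaled signals of 3009, 2962 and 2920, alike on all 3 arrays, and its partner Pdia6 was at 0.35. The 4 upstream windows below are shown because Hspa5 and Pdia6 belong with Sdf2l1 and Pdia4 to the genes of this response and yet differed in the arrays, and were chosen with those differences known. Each is the 250 bases before the start of the RefSeq transcript on build GRCm38.p6, in the 5′ to 3′ direction of the gene, and capitals mark a match to the endoplasmic reticulum stress element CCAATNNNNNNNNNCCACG.
Hspa5, chr2:34771840-34772089, plus strand: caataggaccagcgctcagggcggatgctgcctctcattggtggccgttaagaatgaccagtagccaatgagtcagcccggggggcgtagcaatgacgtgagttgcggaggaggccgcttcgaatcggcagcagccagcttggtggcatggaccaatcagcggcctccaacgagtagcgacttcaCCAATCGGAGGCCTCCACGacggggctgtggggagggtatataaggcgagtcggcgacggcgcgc
Pdia6, chr12:17266339-17266588, plus strand: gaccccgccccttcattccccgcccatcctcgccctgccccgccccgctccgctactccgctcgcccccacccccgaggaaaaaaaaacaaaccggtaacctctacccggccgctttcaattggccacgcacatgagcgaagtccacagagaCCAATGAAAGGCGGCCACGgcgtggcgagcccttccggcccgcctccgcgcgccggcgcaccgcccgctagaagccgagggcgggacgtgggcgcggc
Sdf2l1, chr16:17132384-17132633, minus strand: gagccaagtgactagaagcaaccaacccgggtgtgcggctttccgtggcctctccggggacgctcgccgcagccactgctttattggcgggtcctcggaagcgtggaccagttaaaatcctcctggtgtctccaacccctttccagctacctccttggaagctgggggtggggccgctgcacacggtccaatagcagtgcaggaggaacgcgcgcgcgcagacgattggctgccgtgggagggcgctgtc
Pdia4, chr6:47813513-47813762, minus strand: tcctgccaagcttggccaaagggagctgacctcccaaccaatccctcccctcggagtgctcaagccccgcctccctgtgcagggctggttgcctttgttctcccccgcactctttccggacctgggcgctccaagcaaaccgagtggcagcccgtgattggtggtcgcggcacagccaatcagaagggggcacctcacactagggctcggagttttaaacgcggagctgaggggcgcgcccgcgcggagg
The element was searched on both strands and was the only motif searched. It was found in 37 of 32851 such windows in the table (0.113%). In the folding list 31 of the 36 genes had a window, and 8 of those held the element. The differences of these 8 genes lay between -0.33 and 0.50, so 0 were past 2-fold. Over all genes 2.67% were higher and 5.72% lower, so 0 of 8 is near the background. The 23 genes with a window and no match lay between -2.65 and 3.30, and 3 were past 2-fold, Sdf2l1, Pdia4 and Txndc5. A window without these letters says nothing of elements elsewhere or of other spelling.

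The sensors and amino acid stress genes had 1 higher (2.63%) and 4 lower (10.5%) of 38. The lower ones were the amino acid transporter genes Slc7a5 at -1.22, with another probe at -0.22, and Slc3a2 at -1.03, which form 1 carrier. Atf6b at -1.06 and Sesn2, a stress-induced inhibitor of mTORC1, at -1.01 were lower too. Ddit3, the stress transcription factor CHOP, was at 0.62. Ern2 was at 1.05 (-0.91 with normexp). Heat shock chaperones had 0 higher and 1 lower of 38, Stip1 at -1.19. Proteasome subunits had 3 higher (6.52%) and 1 lower (2.17%) of 46, against 2.67% and 5.72% of all genes. Psmb2, a core particle subunit, had a scaled signal of 25 in normal glucose, 171 in high glucose and 210 under DKK2, and 2 more core genes, Psmb1 and Psma7, were at 1.37 and 1.06. Psmd9, an assembly chaperone, was at -1.28 with its other probe at -0.47.

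In antioxidant defence 5 were lower and 0 higher of 44, or 11.4% against 5.72% of all genes lower, while the median was 0.07. Gpx3, the secreted glutathione peroxidase, had a scaled signal of 385 in normal glucose, 146 in high glucose and 70.4 under DKK2. Gstp1, a glutathione transferase, had a scaled signal of 2145, 832 and 996, with probes at -1.37 and -0.98. Hmox2, the constitutive heme oxygenase, had scaled signals of 564, 266 and 311, and both probes were lower, at -1.09 and -1.04. Glrx, which removes glutathione from proteins, was at -1.15 and Ucp2, a mitochondrial carrier, at -1.26. Ucp2 was dim, at a scaled signal of 7.17 in normal glucose. All 5 stood highest in normal glucose. Sod2, the mitochondrial superoxide dismutase, was at 0.82, and Hmox1, the inducible heme oxygenase, at -0.74 with another probe at 0.37. Of 14 NADPH oxidase and xanthine oxidase genes 2 were higher and 1 lower. Nox1 was at 1.6 and Ncf4 at 1.13 (-0.41 and -0.18 with normexp), and Cybb, the oxidase core of phagocytes, was at -1.41. Cybb was dim, at a scaled signal of 4.27 in normal glucose.

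Acute phase and complement genes held 6 higher (21.4%) and 1 lower (3.57%) of 28, against 2.67% and 5.72% of all genes. The list's median was 0.51. The median was 0.31 with the mean over probes, 0.23 over the 21 members with a signal of at least 100 on both arrays and 0.12 with normexp. Hp, the hemoglobin-binding haptoglobin, had a scaled signal of 25.1 in normal glucose, 158 in high glucose and 8.42 under DKK2. Saa3, a serum amyloid A made outside the liver, had a scaled signal of 17.9, 67.7 and 22.5. Ptx3, a pentraxin made by vessel cells, had a scaled signal of 30.3, 104 and 19.0. Cfd, the complement factor adipsin, had a scaled signal of 154, 427 and 42.9. All 4 were high in high glucose alone. Saa2 was at 3.91 from a scaled signal of 1.02 in normal glucose (0.67 with normexp). Orm1, an orosomucoid of the acute phase, was at 1.08 (-1.15 with normexp), and Lif, a cytokine of the interleukin 6 family, was at -2.59. Lif was dim in high glucose, at a scaled signal of 2.51 against 15.1 in normal glucose. Adipocyte markers stood on the same side: 5 of 19 were higher (26.3%) and 0 lower, and their median was 0.43. With normexp 1 was higher and 2 lower, and that median was 0.08 against -0.26 for all genes. Over the 10 markers with a signal of at least 100 on both arrays it was 0.27. Over the 7 with at least 1000 it was 0.002, below the 0.11 of all genes so filtered. The summed scaled signal of the adipocyte markers came to 2936 in normal glucose, 3648 in high glucose and 1865 under DKK2. The 5 higher in the main setting were Cd36, Retn, Cfd, Plin1, the coat protein of fat droplets, at 1.73 and Adrb3, the adrenergic receptor of fat cells, at 1.22, whose other probe was at 0.22. With normexp Cd36 was at 0.97, Adrb3 at 0.71, Plin1 at 0.59 and Retn at 0.43, and of the 5 only Cfd stayed past 2-fold. The defining marker Adipoq, the hormone adiponectin, had a scaled signal of 78.0, 87.5 and 1.19. Cfd stands in both lists. Whether fat cells in the pools bear on the acute phase values was not tested.

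Macrophage and leukocyte markers had 3 higher (14.3%) and 1 lower (4.76%) of 21, with a median of 0.19. Their summed scaled signals were 3189 in normal glucose, 2696 in high glucose and 4597 under DKK2. Lyz2, macrophage lysozyme, had a scaled signal of 13, 54.1 and 149, and Lyz1, its close relative, whose probe may read both, 194, 550 and 1554. Aif1 was at 1.37 (-0.38 with normexp), Csf1r, the receptor that macrophages need, at 0.00, and Laptm5 was the lower one. Cd68 and Cd163 were not above background on both arrays. In leukocyte adhesion and chemokines 1, Icam2, was higher and 0 lower of 28, with Icam1 at 0.46 and Vcam1 at -0.15 (another probe at 0.49). The interferon response had 0 higher and 0 lower of 32, with a median of 0.02. Oasl1 was at 1.00, before rounding just under the rule, and Isg20 at 0.98 with another probe at -0.41. In the feedback of NF-kappaB, Cebpd, a transcription factor of the acute phase, had a scaled signal of 1719, 4028 and 5285, and Nfkb2 was at -1.20.

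Matrix genes past 2-fold were mostly on the lower side, as were genes in general. Matrix glycoproteins and proteoglycans had 0 higher and 3 lower of 39 (7.69%), near the 5.72% of all genes. Emilin1, which sits on elastic fibres, had a scaled signal of 157 in normal glucose, 50.8 in high glucose and 55.2 under DKK2, the elastin gene Eln was at -1.06 and Fbln2, an elastic fibre partner, at -1.05. Fn1, fibronectin, which high glucose is known to induce in vessel cells, was at -0.03 with scaled signals of 11311, 11081 and 12114. Collagens had 0 higher and 1 lower of 35, Col6a2 at -1.17, with a median of -0.19 and 15 of 35 above 0. Mmp2, a gelatinase, was at -1.04. Among integrins and laminins, Itga5, the fibronectin receptor's alpha chain, had a scaled signal of 225, 41.7 and 55.5, and Itga1, a collagen receptor chain, was at -2.55 with another probe at -0.72. Itga3 was at -1.09, while Itga11 was at 1.24 and Itga2b at 1.32 (-0.72 for Itga2b with normexp). In TGF-beta and BMP signalling 1 was higher and 3 lower of 39. Tgfb1, the ligand known for fibrosis in diabetic tissue, had a scaled signal of 144 in normal glucose, 36.7 in high glucose and 56.3 under DKK2. Bmpr2, a BMP receptor of endothelial cells, had a scaled signal of 209, 87.2 and 63.5, and Ski, which represses this signalling, was at -1.65. Nog, a secreted BMP antagonist, was at 2.76 from a scaled signal of 3.36 (0.87 with normexp).

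**Figure D5:**
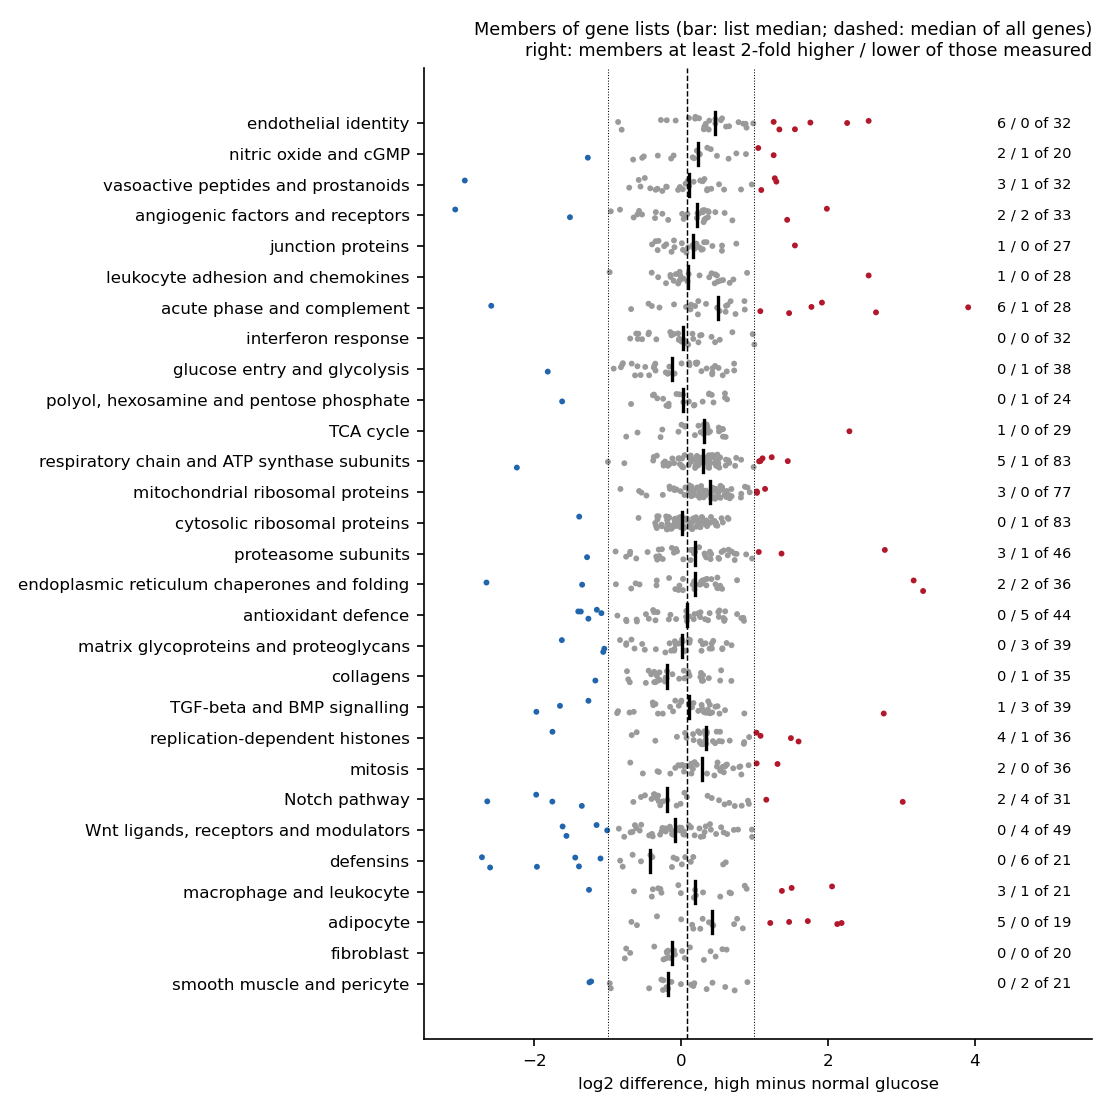
Each point is a measured member of a gene list, and the x axis is its log2 difference, high minus normal glucose, with red and blue for at least 2-fold higher and lower. Black bars are list medians, the dashed line is the median of all genes at 0.09, and the numbers at the right count higher, lower and measured members, such as 6, 0 and 32 for endothelial identity.

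Genes of cell division stood above 0 more often than all genes did. Of 36 mitosis genes 28 lay above 0 (77.8%), with a median of 0.28, 2 higher and 0 lower. Anln, anillin of the cleavage furrow, had a scaled signal of 155 in normal glucose, 317 in high glucose and 615 under DKK2, and Cdc25c was at 1.31 from a scaled signal of 1.02 (-1.07 with normexp). In G1/S and DNA replication 2 were higher and 1 lower of 47, with a median of 0.28: Gins2, of the replicative helicase, at 1.39, Ccne2 at 1.06 (-1.31 with normexp) and Cdkn1a, the cell cycle inhibitor p21, at -1.04 with another probe at 0.81. Of 36 replication-dependent histone genes 31 lay above 0 (86.1%), with a median of 0.34, 4 higher and 1 lower. H3c3 had a scaled signal of 49.8, 141 and 159, and H2bc14 a scaled signal of 416, 882 and 881. H3c7 and H2ac8 were at 1.6 and 1.03 (-0.29 and -0.71 with normexp), and H4c9 was at -1.75 with another probe at 0.70. Histone genes are near copies of one another, so 1 probe may read several. Trp53, the tumour suppressor p53, had a scaled signal of 86.2 in normal glucose, 24.9 in high glucose and 41.3 under DKK2. In its list 0 were higher and 4 lower of 38 (10.5% lower, against 5.72% of all genes). The others were Mdm4 at -1.30 with another probe at 0.05, Cdkn1a and Sesn2. Among immediate early genes Jund was at -1.58 with scaled signals of 1919, 643 and 861, Fosb was at -1.12 and the phosphatase gene Dusp4 at -1.20. Dusp5 was at -1.0025 and Spry2, an inhibitor of growth factor signalling, at 1.22 (0.33 with normexp). Dusp5 was dim, at a scaled signal of 2.64 in normal glucose.

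In the Notch pathway, which sets arterial and tip cell fates, 2 were higher (6.45%) and 4 lower (12.9%) of 31, against 2.67% and 5.72% of all genes. The list's median was -0.19. Notch1, the main endothelial receptor, had a scaled signal of 313 in normal glucose, 79.6 in high glucose and 43.7 under DKK2, but its second probe was at -0.30. Lfng, which adds sugar to Notch receptors, was at -2.64, Dtx3 at -1.75 and the target gene Hes5 at -1.35. Lfng and Hes5 were dim, at scaled signals of 9.20 and 2.11 in normal glucose. Maml2, a co-activator, had probes at 3.02 and -1.38, so its direction cannot be read, and Rfng, a relative of Lfng, had probes at 1.16 and -0.35. The list lay below the median of all genes in the main setting and in 10 others, by 0.20 to 0.39. Wnt ligands, receptors and modulators had 0 higher and 4 lower of 49 (8.16%). Endogenous Dkk2 had a scaled signal of 1136 in normal glucose, 385 in high glucose and 699 under DKK2. Fzd5 was at -1.61 with another probe at 0.02, Fzd8 at -1.01 and Dkkl1 at -1.15. Of the Wnt/beta-catenin target genes Twist1, at scaled signals of 466, 140 and 145, and Tcf7l2, at -1.28 with all 3 probes below 0, were lower and 0 were higher of 24. Among neurotrophic genes Cntfr was at -1.85, Ptn at -1.11 with another probe at -0.22 and Ret at 1.07 (-1.02 with normexp). Cntfr was dim, at a scaled signal of 5.39 in normal glucose. Lif was lower as well. Among axon guidance genes the ephrin receptor gene Epha2 had a scaled signal of 710, 282 and 290, Sema6a was at -1.5 and Plxna2 at 1.22. The netrin receptor gene Dcc, read by 1 probe, was at -1.42 from a scaled signal of 17770.

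Families best known from other tissues were read at low signal, and some held a larger share of lower genes than the 5.72% of all genes. Of 1062 olfactory receptor genes on the array 302 were measured, and 9 (2.98%) were higher and 38 (12.6%) lower, while the median stood at 0.02. Between the glucose arrays, with DKK2 left aside, a further 172 were above background in high glucose alone and 17 in normal glucose alone, which runs the other way. Among the dimmest of the 5 brightness groups of all genes, 7.99% were lower. Vomeronasal receptors had 1 higher and 9 lower of 83 (10.8% lower), 50 more above background in high glucose alone and 3 in normal glucose alone, with Vmn1r174 at -3.22. Defensins had 0 higher and 6 lower of 21 (28.6%), with a median of -0.42, and 13 and 1 above background in high or normal glucose alone. Defb26 had a scaled signal of 21.0 in normal glucose, 3.20 in high glucose and 1.72 under DKK2, and Defb28 was at -2.60 with another probe at 0.10. Keratins and keratin-associated proteins had 0 higher and 5 lower of 65, and 15 and 0 above background in high or normal glucose alone. The lower ones held Krtap12-1 at -2.42 and Krt79, with scaled signals of 106, 38.5 and 27.2. These named genes were high in normal glucose alone. On the Y chromosome 7 of 11 measured genes were lower and 0 higher, with a median of -1.16. Ddx3y, Eif2s3y and Uty, expressed in most male tissues, were at 0.39, 0.41 and 0.40. Kdm5d was at -2.07 from a scaled signal of 9.51, and the testis family member Ssty1 at -3.22 from 7.37. The 6 small nuclear and nucleolar RNA genes went the other way, with 3 higher and 0 lower: Rnu2-10 at 3.61 (1.35 with normexp), Rnu1b6 and Rnu3b1 at 1.03. Of 365 zinc finger genes of the Zfp and Zscan series 8 were higher and 17 lower (4.66%), near the background. Solute carriers, at 9 higher and 18 lower of 271, also stayed near it, with Slc16a7, a monocarboxylate transporter, at -2.13 and Slc22a4, a carnitine and ergothioneine transporter, at 3.00 (0.72 with normexp). As among genes in general, few members were past 2-fold among the aminoacyl-tRNA synthetases (0 higher and 1 lower of 35), the spliceosome (1 and 0 of 34) and the ubiquitin conjugating enzymes (1 and 1 of 30). The lysosomal genes had 2 higher and 2 lower of 33 (6.06% each), and the Hox genes 3 and 3 of 34 (8.82% each).

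Some genes were above background on 1 of the glucose arrays only, whatever the DKK2 array read, and for these a least fold was computed. It sets the bright array against the dim array's reading of that probe or against the faintest signal that passed as well above background there, whichever is larger. There were 1515 such genes in high glucose, of which 82 (5.41%) had a bound of at least 2-fold, and 88 in normal glucose, of which 88 (100%) did. The faintest scaled signal that passed was 0.630 in normal glucose and 0.303 in high glucose. A gene seen in normal glucose alone is thus past 2-fold by construction wherever its bound rests on that high glucose limit. The shares on the sides therefore cannot be compared. Acot2, a mitochondrial acyl-CoA thioesterase, was at least 16.4-fold higher in high glucose, with scaled signals of 0.81 in normal glucose, 13.4 in high glucose and 11.3 under DKK2. The monocarboxylate transporter gene Slc16a12 was at least 12.2-fold higher, the R-spondin receptor gene Lgr4 at least 6.08-fold and Mup18, a major urinary protein with close copies, at least 6.00-fold. On the other side Adam34 was at least 17.6-fold lower, Olfr781 at least 16-fold and the sulfotransferase gene Sult2a1 at least 10.5-fold. Arg2, the mitochondrial arginase that competes for arginine, was not above background on both arrays.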

How the data were processed

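Each of the 3 arrays held a pool of total RNA from 3 samples, labelled with Cy3 and read in 1 colour, per the labels. The deposited intensity values were written by Agilent Feature Extraction 11.5.1.1, per the file headers, as background-corrected processed signals with no normalization between arrays. Spots marked as outliers and control spots were left out, spots of a probe were averaged on the log2 scale, and each array's 75th percentile over probes was subtracted. Probes were named through their accession in the RefSeq table of build GRCm38.p6, which gave 27508 probes 1 symbol and left 11921 unnamed. The header of the array design names an older build, so no array coordinates are given. The brightest measured probe stood for a gene. Genes named are those with all probes past 2-fold (12 per direction), the 12 largest bright differences per direction that also passed with normexp, up to 5 per list, the 4 largest bounds per side and 21 genes of interest, with clone, predicted and accession names left out of all but the lists; for large families and a few lists fewer were named, and examples within 2-fold, and markers of other cells, were added after their values were seen. The members and the 65 lists were chosen with earlier results of these data known. Alternatives were run in limma 3.58.1 and Python 3.11.15, and the code was tested on simulated data. The number of arrays limits the precision. A few genes that the rule names are not reported here.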

Additional observations from a re-analysis of the deposited data

How the results depend on the processing

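The counts of 448 higher and 960 lower genes stayed within 1.5 times with quantile normalization, scaling to the median, cyclic loess, the mean or median over probes and the deposited value table. With normexp they were 171 and 3946, the median of all genes was -0.26, and genes with all probes past 2-fold numbered 5 higher and 337 lower. With no filter on dim probes the counts were 1104 and 2129, and 32 and 89 for all probes. With a signal of at least 100 they were 219 and 618, and 10 genes had all probes higher. With at least 1000 they were 81 and 299, and 3 and 12 for all probes. A 1.5-fold rule gave 2341 and 2276, and 151 and 143 for all probes. A 3-fold rule gave 105 and 323, and 5 and 3 for all probes. The filters and size rules change the number of genes counted by their construction. With normexp the median difference was -1.38 in the dimmest of the 5 brightness groups and 0.25 in the brightest. In the main setting the same groups stood at 0.03 and 0.15. The normexp shift to the lower side thus lay among dim genes. The same offset of 50 was added to both arrays before scaling, and the high glucose array was the brighter. Values near background are thereby pulled below 0 by construction, so a negative normexp value of a dim gene cannot be read as a fall. How much of the shift this makes up was not tested.

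Sign changes with normexp were found in dim genes: Cldn5 at -0.25, She at -1.10, Gucy1a1 at -1.004, Calcrl at -1.18, Ptger3 at -0.11, Cxcr4 at -0.95, Ern2 at -0.91, Nox1 at -0.41, Ncf4 at -0.18, Orm1 at -1.15, Aif1 at -0.38, Itga2b at -0.72, Cdc25c at -1.07, Ccne2 at -1.31, H3c7 at -0.29, H2ac8 at -0.71 and Ret at -1.02. All of these genes were higher in the main setting. Of the 179 named genes past 2-fold, 132 stayed past it with normexp and 30 more kept their direction only. Normexp lowered dim genes as a group, with a median of -1.38 in the dimmest brightness group against 0.03 in the main setting. A dim lower gene thus stays past 2-fold more readily than a dim higher one, so these counts are no check on dim genes. With the median over probes Gsk3b was at 0.032. Normexp on the mean signal was planned and not run, because no mean signal was used here. No paired analysis was possible because each condition has 1 array. Differences of dim genes rest on signal near background.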
